A study of Mus musculus with 121 samples.

Results

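The genes described here are 9 genes of the antiviral type I interferon response, followed over 6 transplanted mouse tumours after gamma rays or carbon ions. They are Rsad2, Ifit1, Ifit3, Mx1, Oas3, Oasl1, Isg20, Irf7 and Usp18, and each was read from its brightest array probe with values on at least 90% of arrays. Of the 9 genes, 8 had a probe of their own and passed every filter, out of 12962 genes tested. The only Ifit3 probe is annotated to Ifit3 and to its near copy Ifit3b, so no value is given for Ifit3.

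The 121 CodeLink arrays carried 1 colour each and fell into 54 groups (41 pairs and 13 sets of 3) set by tumour, radiation, dose and time. The tumours were a fibrosarcoma induced by radiation (g_8520 on gamma and c_8520 on carbon arrays, called the induced fibrosarcoma below), nfsa, a spontaneous fibrosarcoma, mmca and mca4, spontaneous mammary carcinomas, and scc7 and nrs1, labelled squamous cell carcinomas. Each grew as a transplant in the hind leg of male C3H/HeMs mice, and the leg received a single local dose. The 81 gamma arrays (34 groups) covered 0, 30, 50 and 70 Gy, and the 40 carbon arrays (20 groups) covered 0 and 30 Gy.

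Gamma groups of the induced fibrosarcoma, mmca, nfsa and mca4 comprised 0, 30, 50 and 70 Gy at day 1. Later gamma groups of these 4 tumours received 30 or 50 Gy and were taken between day 4 and day 41, and mmca had a second unirradiated group at day 9. The gamma arrays of scc7 (30 Gy day 8, 50 Gy day 23 and day 35) and nrs1 (30 Gy day 8, 50 Gy day 15) had no unirradiated group. In the carbon experiment mmca and mca4 were taken without irradiation and at 6 hours and days 1, 3, 5 and 20. The other 4 tumours were taken after carbon ions at day 5 and at day 20 (day 42 for scc7), with no unirradiated group. The labels do not say whether arrays of a group come from separate animals, so p-values may measure only the spread between arrays.

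Epithelial markers matched the labels in 5 tumours. Epcam, an adhesion protein of epithelial cells, had a median intensity of 154 in mmca, 143 in mca4 and 124 in nrs1, against 0.635 in the induced fibrosarcoma and 0.796 in nfsa. In scc7 the median was 0.513, and the basal keratin gene Krt5 had a median of 0.392 there against 365 in nrs1. Cdh1, the adhesion protein E-cadherin, had a median of 0.613 in scc7 against 43.2 in mca4. The simple keratin gene Krt8 went the other way, with 2.07 in scc7, 2.39 in mmca and 0.973 in nrs1, against 0.398 in nfsa. Epcam, Cdh1 and Krt5 thus do not bear out the squamous label and Krt8 alone does not settle it, so the tumour is called scc7 below. In tumour RNA, fewer cells of a type and less RNA per cell cannot be told apart.

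Type I interferons bind the receptor formed by Ifnar1 and Ifnar2 and act through the kinases Jak1 and Tyk2 on transcription factors that include Stat2 and Irf9, which bind a repeat of GAAA in the promoters of their target genes. Cells also make interferon when sensors such as cGAS detect DNA outside the nucleus, which irradiated cells can contain. Among the genes described here, Rsad2 encodes viperin, an enzyme that makes a chain-terminating nucleotide, and Ifit1 encodes a protein that binds viral RNA lacking host cap methylation. Mx1 encodes an antiviral GTPase. Oas3 encodes a synthetase of the 2-5A signal that activates RNase L, and Oasl1 a related protein without that activity. Isg20 encodes an exonuclease. Irf7 is the transcription factor that amplifies interferon production, and Usp18 removes the ubiquitin-like protein Isg15 and blocks signalling at the interferon receptor. Many inbred mouse strains carry a defective Mx1, and RefSeq lists the gene as a transcribed pseudogene in GRCm38.p6.

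In GRCm38.p6 Rsad2 lies at chr12:26442743-26456452, Ifit1 at chr19:34640889-34650009, Mx1 at chr16:97447035-97462906 and Usp18 at chr6:121245906-121270917. Oas3 (chr5:120753098-120777684) and Oasl1 (chr5:114923143-114937911) share chromosome 5, and Isg20 (chr7:78913396-78920396) and Irf7 (chr7:141263183-141266499) share chromosome 7. RefSeq promoter windows were given for 7 of the 9 genes and matched by symbol. The 250 bases before each start were searched on both strands for GAAA, any 2 bases and GAAA again, which reads TTTC, any 2 bases and TTTC on the other strand. It occurred for 4 of the 7 genes (Rsad2, Ifit1, Ifit3 and Oas3), and in 2.98% of the 32851 mouse windows of that length. The windows of Rsad2 and Ifit1 are shown because these genes had the largest rises in the mean of 4 tumours at day 1 after gamma rays, and that of Oas3 because it departed most often from the other 7. The sequences are written 5′ to 3′ on the strand of the gene, with matches in capitals.
Rsad2 (chr12:26456453-26456702, minus strand): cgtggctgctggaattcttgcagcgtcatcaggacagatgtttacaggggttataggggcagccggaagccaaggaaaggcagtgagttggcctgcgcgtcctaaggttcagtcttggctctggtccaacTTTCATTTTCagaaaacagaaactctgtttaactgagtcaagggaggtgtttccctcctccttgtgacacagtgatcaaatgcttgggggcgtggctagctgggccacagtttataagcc
Ifit1 (chr19:34640639-34640888, plus strand): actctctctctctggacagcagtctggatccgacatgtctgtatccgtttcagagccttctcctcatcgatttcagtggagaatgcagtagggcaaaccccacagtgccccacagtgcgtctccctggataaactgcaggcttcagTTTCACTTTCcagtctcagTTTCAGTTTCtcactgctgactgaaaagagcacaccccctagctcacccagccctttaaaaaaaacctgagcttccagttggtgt
Oas3 (chr5:120777660-120777909, minus strand): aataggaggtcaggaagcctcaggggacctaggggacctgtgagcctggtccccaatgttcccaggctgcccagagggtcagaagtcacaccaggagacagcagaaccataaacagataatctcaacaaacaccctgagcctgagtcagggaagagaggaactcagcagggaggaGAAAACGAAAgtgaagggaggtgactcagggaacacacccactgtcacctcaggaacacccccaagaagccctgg
The match began 120 bases before the start in Rsad2 and 75 bases before it in Oas3. Ifit1 held 2 matches, beginning 104 and 85 bases before the start. No match was found in the windows of Oasl1, Isg20 (3 starts) and Irf7. A match describes letters only, and binding was not measured.

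Before irradiation the genes stood far apart between tumour types. In the 2 unirradiated day 1 gamma arrays of each tumour, Irf7 intensity was 28.2 and 28.7 in the induced fibrosarcoma and 30.4 and 30.6 in nfsa, against 104 and 119 in mmca and 135 and 160 in mca4. Usp18 was 5.15 and 6.25 in the induced fibrosarcoma, 8.08 and 8.00 in nfsa, 48.4 and 46.1 in mmca, and 60.8 and 37.6 in mca4. Every carcinoma array lay above every fibrosarcoma array for both genes. With log2 differences of intensity throughout (a difference of 1 is a 2-fold change), the carcinomas exceeded the fibrosarcomas for 8 of 8 genes, by 2.17 in the median over the genes, against -0.12 over all genes. A gene was called at an adjusted p under 0.05 in limma (Benjamini-Hochberg over all genes), and 26.1% of all genes were called higher in this comparison. The largest differences were those of Ifit1 (2.89 ± 0.21, SE, limma adjusted p = 2.29e-20) and Rsad2 (2.83 ± 0.32), and the smallest that of Oas3 (0.56 ± 0.15).

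Oas3 was measured by 2 probes that disagreed. The brighter, used here, gave the difference above, and the dimmer gave -0.09 for the same comparison (adjusted p = 0.349). Directions reported for Oas3 below hold for the brighter probe, and the dimmer turned many of them (listed with the alternatives at the end).

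Within tumour types the unirradiated arrays also differed. Between the fibrosarcomas 3 genes were higher in nfsa than in the induced fibrosarcoma (Ifit1 by 1.29 ± 0.30, Oasl1 by 0.86 ± 0.23 and Mx1 by 0.72 ± 0.27), where 23.1% of all genes were higher. Between the carcinomas, Rsad2 read 0.418 and 0.670 in mca4 and 3.46 and 3.37 in mmca, and Oas3 read 8.87 and 8.90 in mca4 and 2.49 in both mmca arrays. Rsad2 (-2.69 ± 0.41) and Ifit1 (-1.12 ± 0.30) were thus lower in mca4, and Oas3 (1.83 ± 0.21) and Oasl1 (0.79 ± 0.23) higher, with 23.5% of all genes lower and 28.4% higher. Calls of 2 genes lower and 2 higher of 8 are near these shares of all genes. In the unirradiated carbon arrays Rsad2 read 4.42 and 4.10 in mca4 and 5.28 and 5.66 in mmca. Oas3 read 3.19 and 2.84 in mca4 and 4.34 and 4.62 in mmca there, the reverse of its gamma order. Of the 8 genes Mx1 alone was called in these carbon arrays (-0.96 ± 0.27, adjusted p = 0.0376, 1.26% of all genes lower). Gamma and carbon arrays differed in their share of missing values, so levels are not compared across the beams. The unirradiated mmca arrays of day 9 and day 1 differed for 0 of the 8 genes in limma (2 at an unadjusted p under 0.05), with 6.85% of all genes higher and 14.4% lower, and the differences ranged from 0.09 to 0.64.

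At day 1 after gamma rays the genes rose steeply in the induced fibrosarcoma, moderately in both carcinomas and not in nfsa. Ifit1 intensity in the induced fibrosarcoma went from 2.62 and 2.31 at 0 Gy to 55.8 and 57.4 at 30 Gy, 23.1 and 31.1 at 50 Gy and 15.7 and 14.1 at 70 Gy. All 6 irradiated arrays stood above both controls, and the 30 Gy pair above the rest. Usp18 went from 5.15 and 6.25 to 63.6 and 59.9 at 30 Gy, 34.6 and 43.5 at 50 Gy and 11.4 and 11.8 at 70 Gy. Over the 3 doses Ifit1 rose by 3.52 ± 0.25 (limma adjusted p = 5.97e-20), Mx1 by 2.77 ± 0.22, Usp18 by 2.42 ± 0.23, Oasl1 by 1.40 ± 0.19, Irf7 by 1.31 ± 0.19 and Isg20 by 1.17 ± 0.20. Rsad2 rose by 3.29 ± 0.44, a value that rests on 1 control array at 0.138, close to the floor of 0.127, because the other control had no value. Oas3 gave 0.07 ± 0.17 (adjusted p = 0.767). Thus 7 of 8 rose, with 18.5% of all genes higher.

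In nfsa, Ifit1 was 5.17 and 6.98 at 0 Gy, 4.12 and 4.98 at 30 Gy, 6.54 and 5.66 at 50 Gy and 7.58 and 6.12 at 70 Gy. These arrays overlapped. Of the 8 genes 0 rose in limma (9.32% of all genes higher), and at an unadjusted p under 0.05 the 2 genes past it, Oasl1 and Oas3, were lower. Oasl1 fell (-0.53 ± 0.19, adjusted p = 0.0259, 19.7% of all genes lower), a call that was lost without either control array (adjusted p = 0.128 and 0.145), without replicate 1 of 30 Gy (0.0564) and after quantile normalization. The response of the induced fibrosarcoma exceeded that of nfsa for 7 of 8 genes (Oas3 apart), where 9.05% of all genes were higher, with the largest difference for Ifit1 (3.59 ± 0.35, adjusted p = 3.67e-12). Usp18 differed by 2.72 ± 0.32 and Irf7 by 1.28 ± 0.27.

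In mmca, Oas3 intensity was 2.49 in both controls and lay between 7.33 and 8.67 in all 6 irradiated arrays, a rise of 1.68 ± 0.17 (adjusted p = 6.64e-12). Mx1 (1.36 ± 0.22), Isg20 (1.04 ± 0.20), Oasl1 (0.94 ± 0.19), Usp18 (0.78 ± 0.23) and Irf7 (0.76 ± 0.19) rose too, so 6 of 8 passed with 18% of all genes higher. Rsad2 (0.32 ± 0.33, adjusted p = 0.49) and Ifit1 (0.54 ± 0.25, adjusted p = 0.0802) did not. The calls of Irf7 and Usp18 were each lost without 1 control array (adjusted p = 0.0522 without replicate 1 and 0.0777 without replicate 2). In mca4 6 of 8 genes rose as well, 4 of them (Mx1, Isg20, Usp18 and Irf7) also called in mmca, while Rsad2 and Ifit1 took the place of Oas3 and Oasl1. Rsad2 intensity went from 0.418 and 0.670 to between 1.82 and 6.39 in the 6 irradiated arrays, a rise of 2.60 ± 0.33, and Ifit1 from 19.5 and 19.1 to between 35.2 and 69.4, a rise of 1.52 ± 0.25. Mx1 (1.25 ± 0.22), Usp18 (1.02 ± 0.23), Isg20 (0.99 ± 0.20) and Irf7 (0.47 ± 0.19) rose too, with 21.3% of all genes higher. Oas3 (0.22 ± 0.17) and Oasl1 (0.35 ± 0.19) did not pass. Usp18 lost its call without control replicate 2 (adjusted p = 0.0788), and Irf7 lost its call without any 1 of 6 of the 8 arrays (adjusted p between 0.0518 and 0.308).

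The difference between the carcinomas was tested directly. The rise in mca4 exceeded that in mmca for Rsad2 (2.28 ± 0.47, adjusted p = 0.000103) and Ifit1 (0.97 ± 0.35, adjusted p = 0.0232), where 16.4% of all genes were higher. It fell short for Oas3 (-1.46 ± 0.25, adjusted p = 2.87e-06), where 19.4% of all genes were lower. Calls in 3 of 8 genes are near the share of all genes (4607 of 12890). The call of Ifit1 was lost without any 1 of the 4 control arrays (adjusted p between 0.0563 and 0.0824). These are the genes whose unirradiated level was lower in the tumour with the larger rise. The 2 comparisons share those control arrays. In the carbon controls Oas3 read lower in mca4 than in mmca, and after carbon ions its rise was not smaller in mca4 (given below).

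In the mean of the 4 tumours 8 of 8 genes were higher at day 1, with a median over the genes of 0.90 against -0.04 over all genes, and 24.8% of all genes higher. Rsad2 (1.61 ± 0.18), Ifit1 (1.38 ± 0.12) and Mx1 (1.35 ± 0.11) led, and Oas3 rose least (0.40 ± 0.09). With each group reduced to 1 value, so that the doses of a tumour served as replicates, these 3 leading genes kept their calls in the mean, and Ifit1 and Mx1 in the induced fibrosarcoma. That fit called 9 genes of the whole array in mmca and 0 in mca4 and in either difference between tumours, so it says nothing of the 8 genes there.

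**Figure D1:**
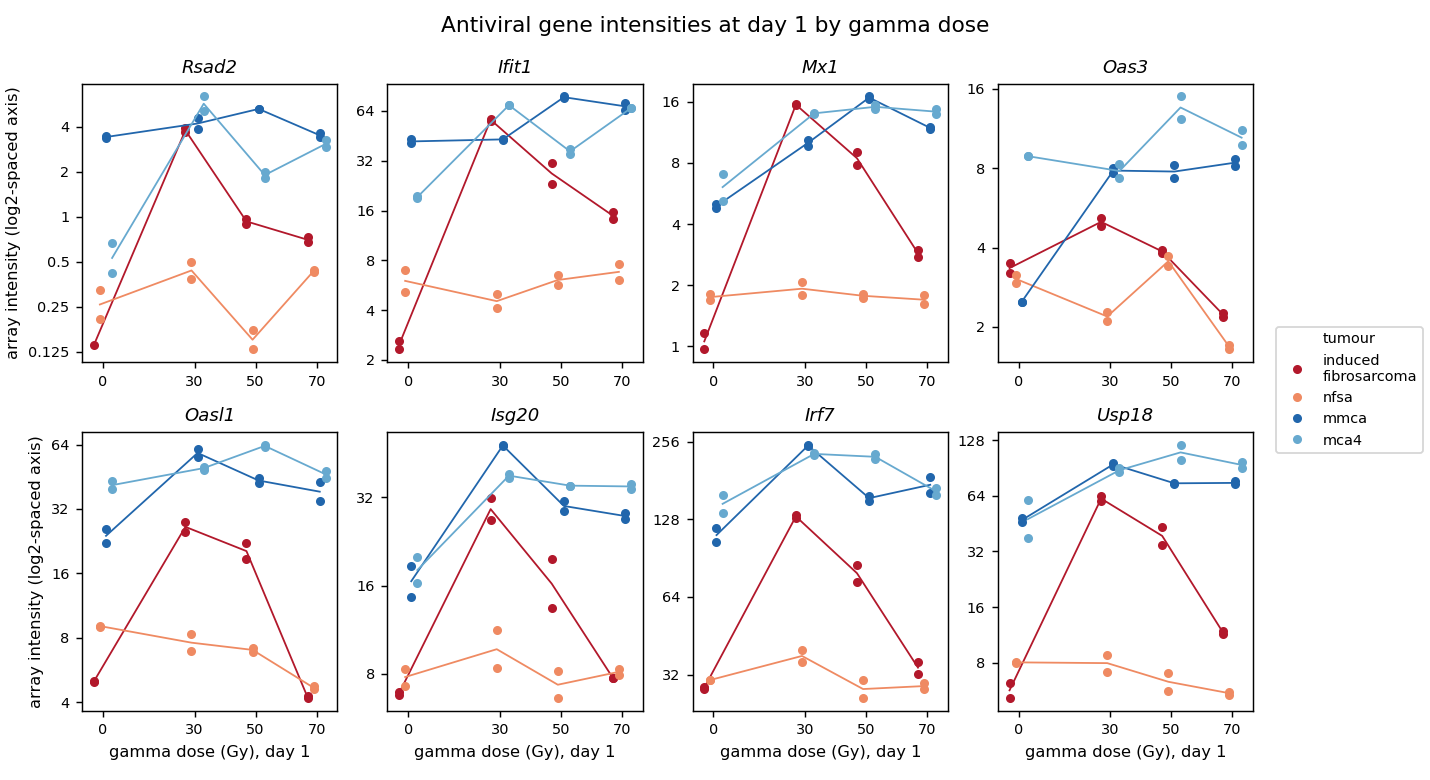
Intensity of 8 antiviral genes (vertical, log2-spaced axis, 1 panel per gene) against gamma dose in Gy at day 1 (horizontal). Points are single arrays, coloured by tumour and shifted sideways for legibility, and lines join group means of log2 intensity. In the induced fibrosarcoma all genes peak at 30 Gy, with Ifit1 at 55.8 and 57.4, while nfsa stays near its control level for most genes.

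At day 1 the genes were lower at 70 than at 30 Gy in the mean of 4 tumours, and the drop in the induced fibrosarcoma exceeded the mean of the other 3. Between these doses 7 of 8 genes were lower in the mean of 4 tumours, with a median of -0.78 and 26.5% of all genes lower. Oasl1 had the largest drop (-1.01 ± 0.11, adjusted p = 1.71e-11) and Ifit1 did not pass (-0.18 ± 0.15, adjusted p = 0.321). The call of Oas3 (-0.26 ± 0.11) was lost in 8 of the 16 fits that left out 1 array. Dose went with a property of the arrays. The 30 Gy day 1 arrays lacked 13.6 to 15.3% of values and the 70 Gy day 1 arrays 10.4 to 11.4%. After quantile normalization 7 genes were still called lower, and the part of this property in the drop was not tested. All 8 genes were lower at 70 than at 30 Gy in the induced fibrosarcoma, by 1.17 (Oas3) to 2.64 (Oasl1), where 14.9% of all genes were lower. Irf7 fell from 129 and 134 to 32.3 and 35.9, near its controls at 28.2 and 28.7. At 70 Gy 4 genes remained above the controls (Ifit1 by 2.60 ± 0.30, Rsad2 by 2.35 ± 0.50, Mx1 by 1.44 ± 0.27 and Usp18 by 1.03 ± 0.28), with 18% of all genes higher. Oas3 was lower there (-0.59 ± 0.21, adjusted p = 0.0176), with 31.6% of all genes lower.

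In the other 3 tumours fewer genes differed between these doses, and the levels did not follow dose. In mmca Ifit1 was 42.9 and 43.2 at 30 Gy, 76.5 and 78.5 at 50 Gy and 65.2 and 71.4 at 70 Gy. In mca4 Oas3 was 7.37 and 8.27, 12.3 and 15.0, and 9.81 and 11.1 at the same doses. Both genes read highest at 50 Gy. Oasl1 (-0.60 ± 0.23) and Isg20 (-0.80 ± 0.25) were lower at 70 Gy in mmca (9.32% of all genes lower), Oasl1 (-0.70 ± 0.23) in nfsa (17.3%) and 0 of 8 in mca4 (7.5%, with 2 genes at an unadjusted p under 0.05). Ifit1 gave 0.66 ± 0.30 in mmca (adjusted p = 0.0905). After quantile normalization it was called higher at 70 Gy there (0.80, adjusted p = 0.0331) and Oasl1 lost its call (-0.51, adjusted p = 0.0722). The drop in the induced fibrosarcoma exceeded the mean drop of the other 3 tumours for 8 of 8 genes, by 1.22 ± 0.25 (Oas3) to 2.46 ± 0.32 (Mx1), a comparison in which 0.882% of all genes were lower. With the gamma arrays fitted alone Rsad2 lost this call (adjusted p = 0.0795). With 1 value per group the drop between 70 and 30 Gy in the mean of 4 tumours was called for 0 of 8 genes and for 434 genes of the whole array.

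Other genes of the pathway moved with the 8 at day 1. In the mean of 4 tumours 24.8% of all genes were higher and 34.7% lower, against which the lists below are read. Of 45 measured interferon-stimulated genes other than the 8, 35 were higher and 3 lower in the mean of 4 tumours, with a median of 0.52. The 4 largest changes were Nmi (1.49), a partner of interferon-induced proteins, Slfn4 (1.27), Cxcl10 (1.26), a chemokine for T cells, and Ifi35 (1.00). There were 34 of the 45 higher in the induced fibrosarcoma and 3 in nfsa, with 4 lower there. Among 17 sensors and adaptors 12 were higher and 2 lower, led by Zbp1 (0.78), a sensor of Z-form nucleic acid, Tlr3 (0.77), a receptor for double-stranded RNA, the DNA exonuclease Trex1 (0.57) and Ddx58 (0.53), which encodes RIG-I.

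Of 14 signalling proteins and transcription factors, 6 were higher and 3 lower in that mean. Jak2 (0.42 ± 0.07), Irf9 (0.37 ± 0.07), Irf5 (0.29 ± 0.07), Irf4 (0.29 ± 0.08), Stat2 (0.29 ± 0.10) and Irf1 (0.26 ± 0.08) rose, and Pias1 (-0.30 ± 0.06), Jak1 (-0.14 ± 0.04) and Irf3 (-0.12 ± 0.05) fell. In the induced fibrosarcoma Irf9 rose by 1.03 ± 0.14 and Stat2 by 0.74 ± 0.20, and in nfsa Irf9 gave -0.02 ± 0.14. Of 6 measured ligands and receptors 1 was higher, a share below that of all genes. Il10rb, a receptor chain shared by several cytokines, rose (0.44 ± 0.08), while Ifnar1 (-0.08 ± 0.06), Ifnar2 (-0.15 ± 0.11), Ifngr1, Ifngr2 and Ifnz did not pass. The genes of interferon beta and alpha were not tested, because the filters on probes left them out. The probes of Ifnb1, Ifna1, Ifna4 and Ifna11 had mean intensities under the limit for dim probes, with medians on gamma arrays of 0.416, 0.471, 0.336 and 0.246, and the Ifng probe had values on 79.3% of arrays.

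Markers of immune cells did not move alike in the 4 tumours at day 1. The summed intensity of 10 T and NK cell genes was 10.6 to 10.9 in the controls of the induced fibrosarcoma and 8.63 to 9.43 in its irradiated day 1 arrays, and 1 of the 10 genes was higher. The sum of 11 macrophage genes was 879 to 928 in the controls of the induced fibrosarcoma and 619 to 1103 in the irradiated arrays, with 4 genes higher and 1 lower. The sum of 3 neutrophil genes went from 42.6 to 54.9 in those controls to 76.2 to 182, with 3 of 3 higher. In nfsa, where the 8 genes did not rise, that sum went from 48.0 to 51.5 in controls to 83.6 to 287 after irradiation, with 2 of 3 higher, and 3 of 8 skeletal muscle genes were higher. In mmca the macrophage sum went from 128 to 138 in controls to 234 to 272 in irradiated arrays, with 9 of 11 genes higher, and 6 of 8 fibroblast genes and 4 of 6 skeletal muscle genes were higher as well. In mca4 the macrophage sum was 420 to 452 in controls and 262 to 420 after irradiation, with 2 genes higher and 3 lower. Of 5 measured plasmacytoid dendritic cell genes 2 were higher and 2 lower in the mean of 4 tumours. The part of any of these cells in the response of the 8 genes was not tested.

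In nfsa the genes rose between day 1 and day 4. At day 4 after 30 Gy Ifit1 was 42.5, 35.2 and 37.0, and after 50 Gy 27.9, 25.0 and 14.3, against 4.12 to 7.58 in all day 1 arrays including controls. Irf7 was 235, 185 and 170 after 30 Gy and 167, 185 and 118 after 50 Gy, against 25.9 to 39.9 at day 1. No day 4 array overlapped the day 1 arrays for either gene. The day 4 arrays lacked 17.0 to 18.2% of values after 30 Gy and 17.5, 17.6 and 12.5% after 50 Gy. The day 1 arrays of nfsa lacked 10.1 to 15.3%. The 50 Gy array lacking 12.5% read lowest for both genes at day 4, and the part of missing values was not tested. Against the controls 8 of 8 genes were higher at both doses, by 0.98 ± 0.19 (Oas3) to 2.67 ± 0.28 (Ifit1) and 2.67 ± 0.21 (Irf7) at 30 Gy and by 0.53 ± 0.19 (Oas3) to 2.33 ± 0.21 (Irf7) at 50 Gy. At each of these doses 22.9% of all genes were higher. Set against day 1 at the same dose, 8 of 8 genes were higher at 30 Gy (25.4% of all genes higher) and 7 of 8 at 50 Gy (21.9%), Oas3 giving 0.31 ± 0.19. The dimmer Oas3 probe fell from day 1 to day 4 at 50 Gy (-0.80).

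Other pathway genes moved at the same time in nfsa. At day 4 after 30 Gy 35 of the 45 other interferon-stimulated genes were higher and 4 lower, with a median of 1.33. Of 14 signalling proteins and transcription factors 8 were higher and 2 lower. Irf9 rose by 1.24 ± 0.16, Irf8, a factor of myeloid cells, by 1.10 ± 0.22 and Stat2 by 0.91 ± 0.22, whereas Irf3 fell by 0.95. Of 6 measured ligands and receptors Ifnar2 alone was called (1.25 ± 0.25), a share below the 22.9% of all genes called higher. Cell markers shifted as well. The T and NK cell sum was 11.9 to 12.8 in controls and 10.8 to 14.1 at day 1 after 30 Gy, and 135 to 316 at day 4 after 30 Gy and 275 to 379 after 50 Gy, with 8 and 9 of 10 genes higher. The macrophage sum was 756 to 811 in controls and 1207 to 1479 at day 4. Their part in the rise of the 8 genes was not tested.

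**Figure D2:**
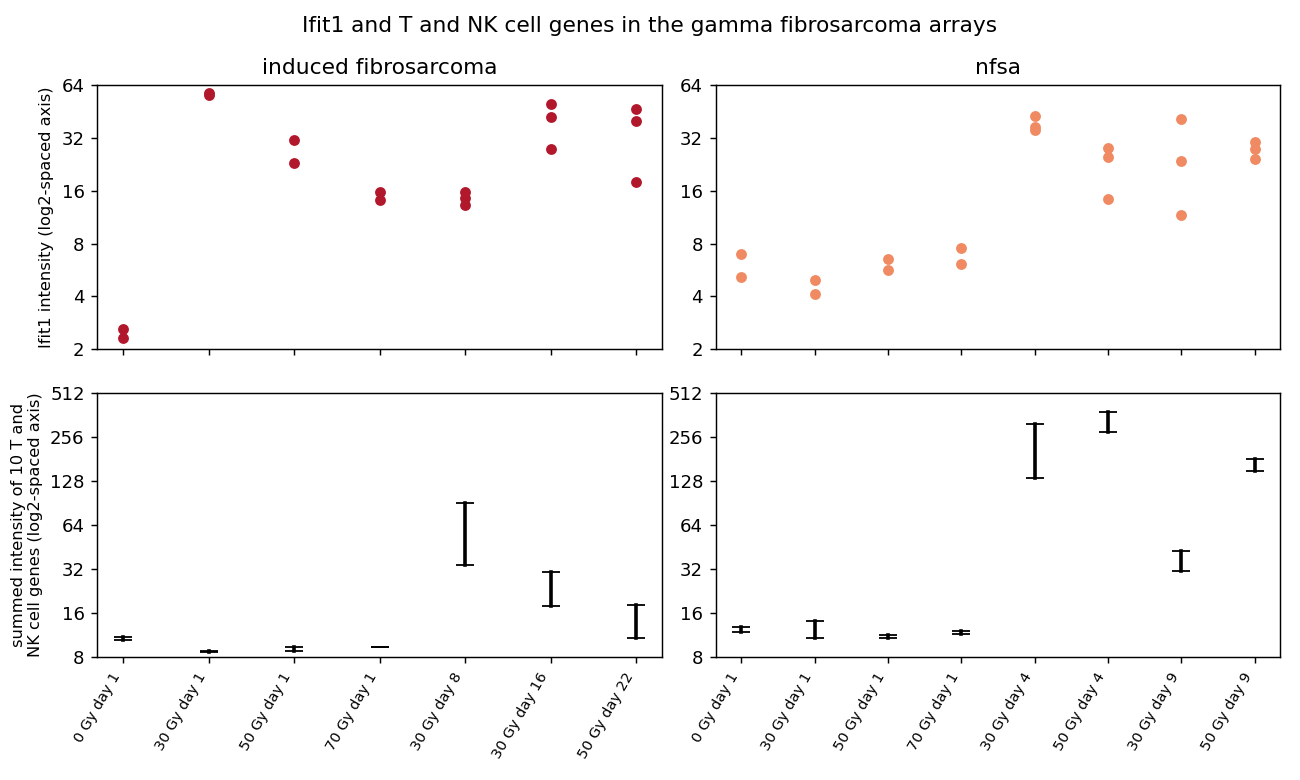
Ifit1 intensity per array (top, points) and the lowest and highest summed intensity of 10 T and NK cell genes (bottom, bars) in each gamma group of the induced fibrosarcoma (left) and nfsa (right), on log2-spaced axes. In the induced fibrosarcoma Ifit1 reaches 55.8 and 57.4 at day 1 after 30 Gy while the sum is 8.63 to 8.87. In nfsa Ifit1 and the sum are both near control at day 1 and both higher at day 4, where the sum spans 135 to 379.

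Between days 8 and 25 more of the genes stood above control in the fibrosarcomas than in the carcinomas, and in mmca their number depended on the control. The day 1 controls stood higher in the carcinomas for 8 of 8 genes, so these counts do not rank late levels. The late arrays of mmca are set against its unirradiated day 9 arrays, and those of the other 3 tumours against their day 1 controls. In the mean of 4 tumours 7 of 8 genes were higher (median 0.95 against -0.03 over all genes, 34% of all genes higher), and Oas3 did not pass (0.17 ± 0.09, adjusted p = 0.0659), although it passed without any 1 of 6 arrays (adjusted p between 0.0151 and 0.0494). In the induced fibrosarcoma 7 of 8 were higher (28.1% of all genes higher), with Ifit1 at 3.41 ± 0.24. Rsad2 gave 4.39 ± 0.43, again against the 1 control array at 0.138. In nfsa 8 of 8 were higher (24.5%), with Rsad2 at 2.62 ± 0.33, Ifit1 at 2.04 ± 0.25 and Irf7 at 1.81 ± 0.19. In mmca Oas3 (0.99 ± 0.17) and Oasl1 (0.45 ± 0.19) were higher (25.6% of all genes). The day 9 controls of mmca stood 0.09 to 0.64 above its day 1 controls over the 8 genes, with 0 of 8 called. Irf7 read 155 and 174 against 104 and 119. These day 9 controls lacked 9.99 and 10.4% of values, against 13.8 to 14.2% in the late irradiated mmca arrays. Set against the day 1 controls, Mx1 (1.07, adjusted p = 4.75e-05), Isg20 (0.57, adjusted p = 0.0139), Irf7 (0.57, adjusted p = 0.0102) and Usp18 (0.58, adjusted p = 0.028) were higher too, so 6 of 8 passed, and in the mean of 4 tumours 8 of 8. In mca4 Rsad2 (2.43 ± 0.33), Ifit1 (1.40 ± 0.25) and Mx1 (0.77 ± 0.22) were higher (28.6%), while Oas3 (-0.68 ± 0.17) and Oasl1 (-0.55 ± 0.19) were lower (35.1%). After quantile normalization Oasl1 lost this call (adjusted p = 0.0508) and Isg20 was called higher (0.43, adjusted p = 0.0372). The late response of the fibrosarcomas exceeded that of the carcinomas for 7 of 8 genes (12.6% of all genes), Oas3 apart, and the same 7 passed with the day 1 controls of mmca. Rsad2 differed by 2.49 ± 0.36 (2.32 with those controls), a value that rests on fibrosarcoma controls of 0.138 in 1 array and of 0.206 and 0.324 in nfsa, all under the limit for dim probes of 0.474. At these times 10 of 10 T and NK cell genes and 10 of 11 macrophage genes were higher in the mean of 4 tumours, and their part was not tested.

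The course in the induced fibrosarcoma was not a single decline. After 30 Gy Rsad2 read 3.67 and 3.90 at day 1, then 0.872, 0.568 and 1.05 at day 8, and 5.71, 4.48 and 6.61 at day 16. The day 8 arrays lay below both other times. All 8 genes were lower at day 8 than at day 1 (23.6% of all genes lower), Mx1 by -2.27 ± 0.25, a count of 7 after quantile normalization, where Irf7 gave -0.42 (adjusted p = 0.0908). Of the 8, 6 were higher at day 16 than at day 8 (15.3% higher), Rsad2 by 2.78 ± 0.33 and Ifit1 by 1.42 ± 0.25. Irf7 (-0.14 ± 0.19) and Oas3 (-0.19 ± 0.17) did not pass. The neutrophil sum was 11.7 to 20.1 at day 8 and 303 to 518 at day 16, the T and NK cell sum was 34.3 to 91.3 and 17.9 to 30.5, and their part was not tested. At day 22 after 50 Gy Rsad2 was 2.88, 7.50 and 7.67, above both day 1 arrays of that dose at 0.897 and 0.964, a difference of 2.56 ± 0.37. Isg20 was also higher than at day 1 (0.55 ± 0.23), with 28.4% of all genes higher, and Oasl1 (-1.12 ± 0.21) and Mx1 (-0.76 ± 0.25) lower, with 31.3% lower.

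In nfsa the genes fell again at 30 Gy and held at 50 Gy. Between day 4 and day 9 at 30 Gy, 6 of 8 genes fell (9.28% of all genes lower), led by Mx1 (-1.56 ± 0.22) and Irf7 (-1.33 ± 0.19). Rsad2 rose (1.80 ± 0.33, 12.6% of all genes higher), from 1.11, 0.944 and 0.780 to 6.41, 3.48 and 1.55. The 3 day 9 arrays of this group were spread widely, Irf7 reading 134, 79.8 and 43.2. At 50 Gy 0 of 8 genes differed between these days in limma (3 at an unadjusted p under 0.05, 3.5% of all genes higher and 3.17% lower), with differences of -0.05 to 0.46. In mca4 at day 41 after 50 Gy, Rsad2 (3.38 ± 0.41), Ifit1 (1.28 ± 0.30) and Isg20 (0.63 ± 0.25) were above the controls (26.5% of all genes higher), and Oas3 was below (-1.04 ± 0.21, 29.7% of all genes lower).

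**Figure D3:**
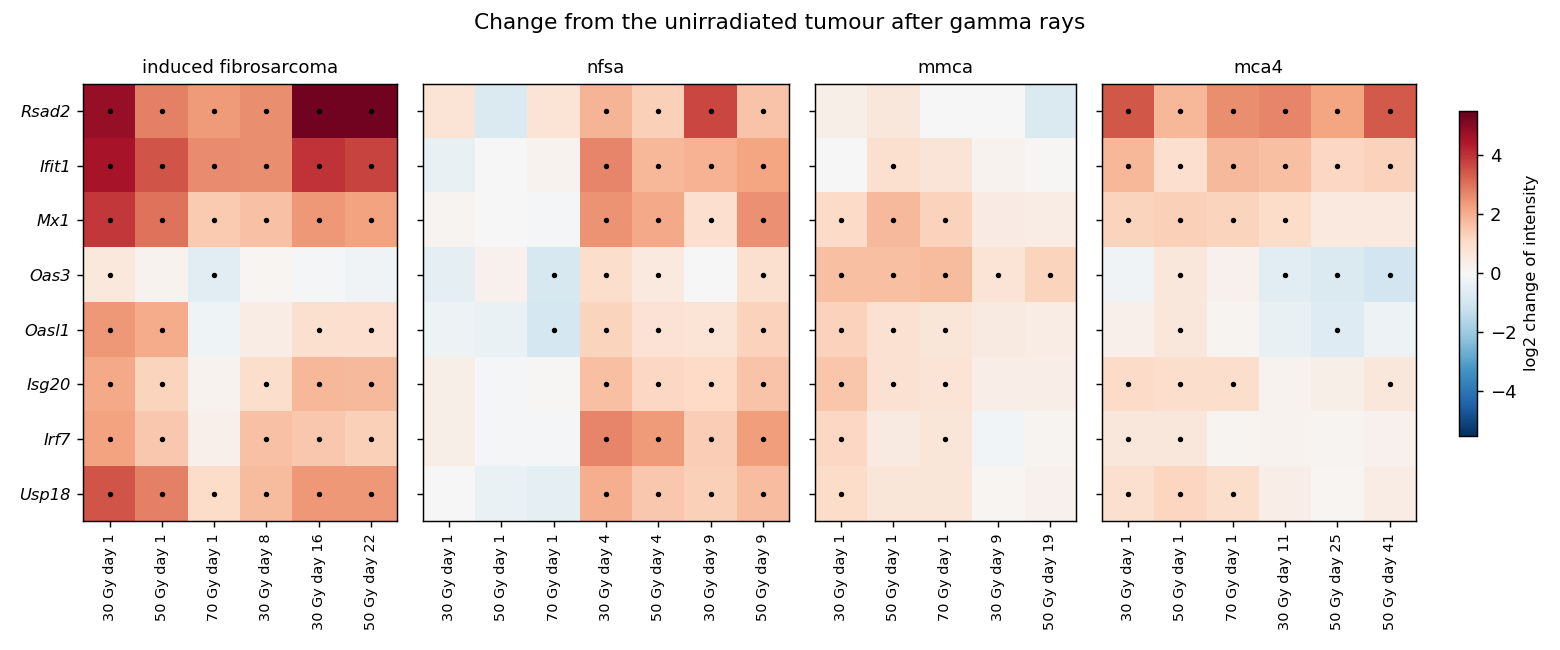
Log2 change of intensity from the unirradiated group of the same tumour (colour) for 8 genes (rows) in each irradiated gamma group (columns) of 4 tumours. Dots mark an adjusted p under 0.05. In nfsa the day 1 columns hold 2 calls, both lower (Oas3 and Oasl1 at 70 Gy, where 26.1% of all genes were lower), and the day 4 columns are called higher for 8 of 8 genes at both doses.

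For scc7 and nrs1 only irradiated gamma arrays were available, so changes between times are given. In scc7 Ifit1 was 32.2 and 21.3 at day 8 after 30 Gy, 30.8 and 21.7 at day 23 and 38.3 and 33.1 at day 35 after 50 Gy, and 0 of 8 genes differed between successive groups in limma (0 also at an unadjusted p under 0.05, 1.7 and 0.503% of all genes higher), with differences of -0.26 to 0.56. In nrs1 4 of 8 genes were higher at day 15 after 50 Gy than at day 8 after 30 Gy (3.29% of all genes), Ifit1 by 1.00 ± 0.25, Mx1 by 0.76 ± 0.22, Irf7 by 0.63 ± 0.19 and Oas3 by 0.55 ± 0.17. Dose and time differ together there. At day 8 after 30 Gy Isg20 (-1.01 ± 0.23), Usp18 (-0.87 ± 0.25) and Ifit1 (-0.63 ± 0.28) were lower in scc7 than in nrs1 (26.5% of all genes lower), although Isg20 varied from 34.4 to 70.0 among the nrs1 arrays.

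After carbon ions the carcinomas responded later than 6 hours, with a maximum at day 3 for most genes. In mmca Mx1 was 9.52 and 10.7 without irradiation, 10.3 and 10.2 at 6 hours, 13.0 and 13.4 at day 1, 21.5 and 23.1 at day 3, 15.3 and 17.1 at day 5 and 8.33 and 8.85 at day 20. In mca4 it was 5.32 and 5.09, then 6.45 and 6.28, 10.8 and 8.97, 20.1 and 19.5, 15.2 and 12.8, and 7.48 and 7.44 at the same times. In both tumours the day 3 arrays were the highest and the day 20 arrays lay below those of days 3 and 5. At 6 hours 0 of 8 genes differed from control in either tumour in limma (0 also at an unadjusted p under 0.05, 2.85 and 1.33% of all genes higher in mmca and mca4), with differences of -0.31 to 0.35. At day 3 5 of 8 were higher in mmca (13.3%) and 7 of 8 in mca4 (10.8%), and at day 20 2 (Isg20 and Oas3, 22.7%) and 1 (Oas3, 24%). From day 3 to day 20 3 genes fell in mmca, Rsad2 by 1.89 and Mx1 by 1.38 among them (17.6% of all genes lower), and 5 in mca4 (23.8%).

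Over days 1 to 5 together 4 of 8 genes rose in mmca (14.8% of all genes higher), namely Isg20 (1.20 ± 0.20, adjusted p = 1.66e-06), Oas3 (0.96 ± 0.17), Mx1 (0.73 ± 0.22) and Oasl1 (0.49 ± 0.19). In mca4 6 of 8 rose (12.8%), led by Oas3 (1.55 ± 0.17), Mx1 (1.42 ± 0.22) and Isg20 (1.03 ± 0.20). Rsad2 (0.60 ± 0.33 in mmca and 0.66 ± 0.33 in mca4) and Ifit1 (0.51 ± 0.25 and 0.62 ± 0.25) did not pass in either tumour. In mca4 same-numbered carbon arrays deviated together, and with the replicate number as a block 7 of 8 passed, Ifit1 included (0.62, adjusted p = 0.0266). The block also passed Ifit1 at day 3 (8 of 8) and its fall from day 3 to day 20 (6 genes), and Mx1 at day 1 and day 20 in mca4. In a fit of the carbon arrays alone 8 of 8 rose in both tumours, and after quantile normalization 7 of 8 rose in mmca. Without control replicate 1 mmca kept 2 calls, and without either control array mca4 kept 4. With 1 value per group 0 genes of the whole array were called in either tumour, so that fit says nothing of the 8. The difference between the responses was called for 0 of the 8 genes in limma (2 at an unadjusted p under 0.05, 0.178% of all genes higher and 0.394% lower), with differences of -0.17 to 0.69. The carbon arrays alone gave 4 genes with a larger rise in mca4 (Mx1, Oas3, Oasl1 and Irf7).

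**Figure D4:**
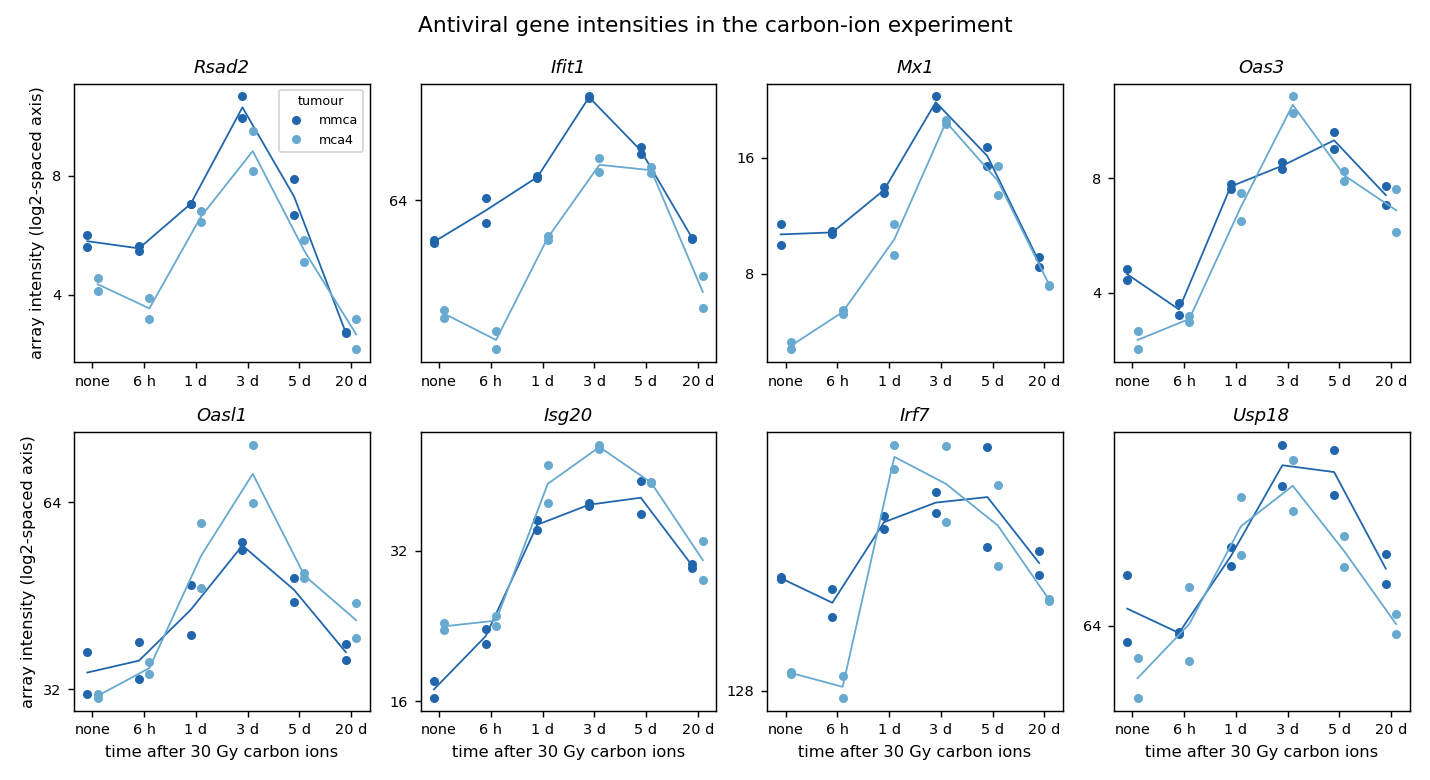
Intensity of 8 genes (vertical, log2-spaced axis, 1 panel per gene) without irradiation and at 6 hours and 1, 3, 5 and 20 days after 30 Gy of carbon ions (horizontal, not to scale) in mmca and mca4. Points are single arrays and lines join group means of log2 intensity. Mx1 reaches 21.5 and 23.1 in mmca and 20.1 and 19.5 in mca4 at day 3.

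Cell markers moved over the same carbon series. At day 3 5 of 6 squamous genes were higher in each tumour, with medians of 1.83 in mmca and 1.71 in mca4, and their sum went from 26.3 to 26.4 in mmca controls to 106 to 116. At day 3 11 of 11 macrophage genes were higher in mmca and 9 of 11 in mca4, and the macrophage sum went from 287 to 296 in mmca controls to 465 to 532 at day 3 and 946 to 960 at day 20. The T and NK cell sum in mca4 was 7.96 to 8.31 without irradiation, 23.5 to 25.1 at day 3 and 42.6 to 45.9 at day 20, with 6 of 10 genes higher at day 3 against 2 of 10 in mmca. The macrophage sum in mmca and the T and NK cell sum in mca4 were thus higher at day 20 than at day 3. Their part in the response was not tested.

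In the other 4 tumours the carbon arrays compare a later with an earlier time. In the induced fibrosarcoma Mx1 was 33.6 and 33.5 at day 5 and 9.66 and 10.2 at day 20, and 6 of 8 genes fell (16.9% of all genes lower), with Mx1 at -1.76 ± 0.27, Oas3 at -1.69 ± 0.21 and Oasl1 at -1.44 ± 0.23. The T and NK cell sum fell beside them from 260 to 283 to 20.7 to 21.4. In nfsa that sum fell from 305 to 306 to 21.7 to 30.1, and of the 8 genes 0 were called lower in limma (7.78% of all genes lower). The part of these cells was not tested. Across the 8, 3 passed an unadjusted p under 0.05, among them Mx1, which gave -0.68 ± 0.27 (adjusted p = 0.068) and was called lower after quantile normalization (-0.76, adjusted p = 0.0347). Rsad2 rose (12.1% higher), from 1.72 and 1.63 to 7.61 and 6.92 (2.12 ± 0.41, adjusted p = 5.38e-05). In nrs1 Ifit1 (-1.48 ± 0.30), Oasl1 (-1.31 ± 0.23) and Mx1 (-0.97 ± 0.27) fell (11.2% of all genes lower) and Isg20 rose (1.20 ± 0.25, 24.5% higher). In scc7 5 of 8 genes were lower at day 42 than at day 5 (17% of all genes lower), Oasl1 by -1.34 ± 0.23 and Mx1 by -1.33 ± 0.27. Irf7 had a value on 1 of the 2 scc7 arrays of day 5. At day 5 6 of 8 genes were lower in scc7 than in nrs1 (22.3% of all genes lower), Ifit1 by -1.57 ± 0.30.

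The 8 genes kept together across groups to different degrees. Over the 34 gamma group means the correlation of each gene with the mean of the other 7 was highest for Usp18 (r = 0.96), Irf7 (0.94), Mx1 (0.93) and Ifit1 (0.92) and lowest for Rsad2 (0.74) and Oas3 (0.72). The genes most like the mean of all 8 were Oasl2 (r = 0.97), Mx2 (0.96), Oas1b (0.94), Bst2 (0.92) and Adar (0.92) of 12756 genes. Over the 20 carbon groups they were Dhx58 (0.94), Oasl2, Oas1b, Oas1a and Ifi35. The group means share tumours and controls, so these values describe the groups and carry no test.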

How the data were processed

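RNA of 121 tumour samples was labelled with Cy5 and hybridised to CodeLink arrays, per the labels' protocols. The values are probe intensities as deposited by the authors in the series table. The software and the normalization behind them are not given in the sources used here. Gamma arrays lacked 9.99 to 18.62% of values and had median intensities of 1.31 to 1.85. Carbon arrays lacked 0.541 to 4.922% and had medians of 1.04 to 1.07, so levels were not compared across the beams. The number of arrays limits the precision.

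Of 36227 probes, 21615 have 1 gene symbol in the platform annotation, 681 several and 13931 none. Probes with 1 symbol, values on 90% of arrays and a mean above the 20th percentile were kept, and the brightest per gene was used, giving 12962 genes. Intensities were floored at 0.127 (5th percentile of positive values) and taken to log2, and missing values stayed missing. Group means were fitted over all arrays with limma 3.58.1 in R 4.3.3 (67 residual degrees of freedom, trended variances, two-sided), with Benjamini-Hochberg adjustment over all genes. Adjusted p-values in the text are from these limma fits. Errors are standard errors. The fit was tested on simulated data. Plots used Python 3.11.15 and its matplotlib package (3.10.9).

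The genes described, the pathway lists and the cell markers were chosen with earlier results of these data known. Other genes are named by a rule. Per pathway list they are the 4 with the largest absolute change in the mean of 4 tumours at day 1 among those called. All measured ligands and receptors, and the signalling proteins and transcription factors called in that mean, are named too. So are the 5 genes most correlated with the mean of the 8. In nfsa at day 4 the named Irf9, Irf8, Stat2 and Irf3 are a choice among the 14 measured. Comparisons of nfsa day 4 with day 1, of the induced fibrosarcoma between late and early times at 30 and 50 Gy, of late fibrosarcoma with carcinoma responses and of the dose effect in the induced fibrosarcoma with that in the other 3 tumours were added after seeing the data. Same-numbered arrays of carbon mca4 deviated together (all 30 correlations over 0.1, the lowest 0.12), the numbers coming from the sample titles, so values with the number as a block stand beside its results. In the other tumours and beams with 3 or more groups not every correlation passed 0.1 (medians -0.04 to 0.28), and those arrays were not taken as paired. Alternatives were another normalization, floor, filter, variance model, set of arrays, probe and control, a replicate block, 1 value per group and leaving out each array.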

Additional observations from a re-analysis of the deposited data

Results flagged for a closer look

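Responses that differed between tumours under the same treatment, by limma's test of the difference itself at day 1 after gamma rays, were as follows. The rise in the induced fibrosarcoma exceeded that in nfsa by 3.59 for Ifit1 (adjusted p = 3.67e-12), 3.05 for Rsad2 (4.69e-05), 2.73 for Mx1 (1.49e-09) and 2.72 for Usp18 (2.34e-09). It exceeded it by 1.93 for Oasl1 (1.78e-07), 1.28 for Irf7 (0.000367) and 1.07 for Isg20 (0.00469). Of all genes 9.05% were higher in this comparison. The Rsad2 value rests on 1 control array of the induced fibrosarcoma at 0.138, close to the floor of 0.127. Its nfsa controls read 0.206 and 0.324, also under the limit for dim probes of 0.474. The rise in mca4 exceeded that in mmca by 2.28 for Rsad2 (0.000103) and 0.97 for Ifit1 (0.0232), and Oas3 gave -1.46 (2.87e-06). In that pair 4607 of 12890 genes were called, so calls in 3 of the 8 are near the share of all genes. The Ifit1 call depended on every control array, as given above, and the Oas3 value is that of its brighter probe. All values are log2 differences of intensity, and with 1 value per group 0 genes of the whole array were called in either pair of tumours, so that fit says nothing of these genes.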

How the results depend on the processing

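Of 632 values (8 genes in 79 comparisons), 592 kept their side of the threshold after quantile normalization and 630 without the filter on dim probes. With the floor at the 10th percentile 632 did, without a variance trend 630, and with arrays of the same beam alone 546. With missing values at the floor before quantile normalization 564 did, and with the replicate number as a block 602. Among these, values called in both fits also kept their sign. Sign changes of values called in neither fit were not counted. Counts of called genes moved as follows. In nfsa at day 1 the count went from 1 to 0 after quantile normalization, with missing values at the floor, with gamma arrays alone and with 1 value per group, and to 2 with the replicate block. The block moved no other count of the 12 main comparisons by over 1.5 times. The count for mca4 over mmca went from 2 to 1 with missing values at the floor and with gamma arrays alone. Over carbon days 1 to 5 it went from 4 to 7 in mmca after quantile normalization and to 8 with carbon arrays alone, and the difference between mca4 and mmca from 0 to 4 with carbon arrays alone. With 1 value per group 3 of 8 genes were called in the day 1 mean, 2 in the induced fibrosarcoma, 6 in the late mean and 0 in mmca, mca4, the dose comparison, both differences and both carbon responses; this fit called 0 genes of the whole array in mca4, both differences and both carbon responses, 9 in mmca and 434 for dose. With day 1 controls for late mmca 13 of 64 values gained a call and 0 lost one, and the late mean went from 7 to 8. Leaving out each of 77 arrays gave 7 to 8 in the day 1 mean, 6 to 7 in the induced fibrosarcoma (6 where Rsad2 was left without a control), 5 to 6 in mmca, 0 to 1 in nfsa, 4 to 6 in mca4, 6 to 7 for dose, 6 to 7 and 1 to 2 for the differences, 6 to 8 late, and 2 to 4, 4 to 6 and 0 for carbon. The dimmer Oas3 probe reversed the sign in 22 comparisons in which either probe was called, and the cause was not tested. Sign changes in comparisons called by neither probe were not counted. At day 1 it gave -0.093 in the mean, -0.026 in mmca, -0.29 in mca4, -0.25 in the induced fibrosarcoma at 30 Gy, -0.21 and -0.039 in mmca at 30 and 70 Gy, -0.092 in mca4 at 50 Gy, and 0.19 and 0.13 for 70 against 30 Gy in the mean and in the induced fibrosarcoma. Later it gave -0.44 in the mean, -0.35 in mmca, -0.27 in nfsa, -0.47 in the induced fibrosarcoma at day 8, -0.48 and -0.21 in mmca at days 9 and 19, -0.36 in nfsa at day 9 after 50 Gy, -0.13 and -0.30 in nfsa at day 4 after 30 and 50 Gy and -0.80 for day 4 against day 1 at 50 Gy. It gave -0.054 in nrs1, 0.23 in scc7 after carbon ions and -0.090 for carcinomas against fibrosarcomas. Irf7 in scc7 after carbon ions turned to 3.98 with missing values at the floor, where 1 missing array of 2 was set to 0.127. Quantile normalization moved the median of all genes by at most 0.095.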
